A study of Rattus norvegicus with 24 samples.

Results

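The comparison described here sets 8 rat (Rattus norvegicus) brain samples named vehicle against 8 named normal control, which is 16 of the 24 samples of the series. The samples were taken by title alone, and every gene that passed a filter on low counts was kept, 14131 of 29539. RNA was made from brain, selected for poly(A) tails and turned into directional libraries, per the labels. The series description concerns SKF-81297, an agonist of D1-like dopamine receptors given into the peritoneum each day for 3 days, the first time 1 h after a stab wound of the forebrain. The label of the vehicle group is that word alone, taken here to mean brain that was wounded and received the carrier. Normal control is not called sham-operated, and the brain region, time of collection, strain, age and sex of the animals are not given in the labels. The wound, the surgery, the carrier and the piece of brain taken thus cannot be told apart in this contrast. Whether the 8 samples in each group were 8 animals is not stated, so each p-value measures sample-to-sample spread, which may be technical.

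A cut through brain tissue kills cells, opens vessels and breaks axons, and blood cells enter. Resident glia then change shape and divide, and phagocytes clear debris and myelin. Neurons near a cut can lose synaptic and channel transcripts or raise growth genes. Since each sample is a piece of tissue, fewer cells of a type and less RNA per cell cannot be told apart in any fall reported below.

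Total counts ran from 8911339 to 12383368 per library. The first principal component of log2 CPM (counts scaled to library size) held 59.4% of the variance and placed all normal control libraries between -51.7 and -36.7 and all vehicle libraries between 30.1 and 58.8. Pan-neuronal, astrocyte and oligodendrocyte markers were present in every library, and the 6 neuronal markers summed to at least 2013 CPM in each. Among normal control libraries 2 stood apart. Normal control 4 carried skeletal muscle transcripts, with 8001 counts of the myosin gene Myh4 against 8 to 34 in the other 15 libraries. Normal control 6 lay at -61.9 on the second component (8.86% of the variance), had 0 counts of the Y-linked Eif2s3y against 538 to 707 elsewhere, and held 2334 counts of the dopamine receptor gene Drd1 against 88 to 794. Markers of the thalamus, a deep relay of the forebrain, also differed between the groups: 10 of 11 were lower in vehicle, and their sum was 137 to 1080 CPM (median 653) in normal control and 103 to 242 CPM (157) in vehicle. Only normal control 6, at the lowest of these values, lay within the vehicle range. The 5 choroid plexus markers gave no call, with sums of 6.30 to 3877 CPM in normal control and 1050 to 4053 CPM in vehicle. The part of the sampled region in the falls below was not tested.

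Over all genes, the differences were many, mostly small in both directions, and lopsided only where they were large. edgeR's quasi-likelihood test called 7364 genes (52.1% of those tested) at a Benjamini-Hochberg adjusted p under 0.05, with 3637 (25.7%) rising and 3727 (26.4%) falling. Changes of 2-fold or more were called for 997 genes upward (7.06%) and 442 downward (3.13%). At 4-fold the counts were 407 and 53, at 8-fold 184 and 12, and at 64-fold 29 and 1. The 12 genes that fell 8-fold or more included the muscle genes Neb, Ttn, Mb, Myh2, Myh4 and Acta1, and without normal control 4 the changes of Myh4 and Acta1 were -0.78 and -0.20 instead of -5.79 and -4.11. Genes whose 8 vehicle libraries all lay above all 8 normal control libraries numbered 1638 (11.6%), and 1065 (7.54%) showed the opposite order. This background applies to every gene group below, because a group with shares near 25.7% higher and 26.4% lower only repeats the count over all genes. The balance of small calls depends on scaling. On the log2 scale of TPM, a deposited unit that corrects for gene length, the median gene stood 0.11 higher in vehicle, and 5285 genes were higher and 2271 lower. With that shift taken out by centring on the median gene, a setting added after the data were seen, 3182 were higher and 4494 lower.

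**Figure D1:**
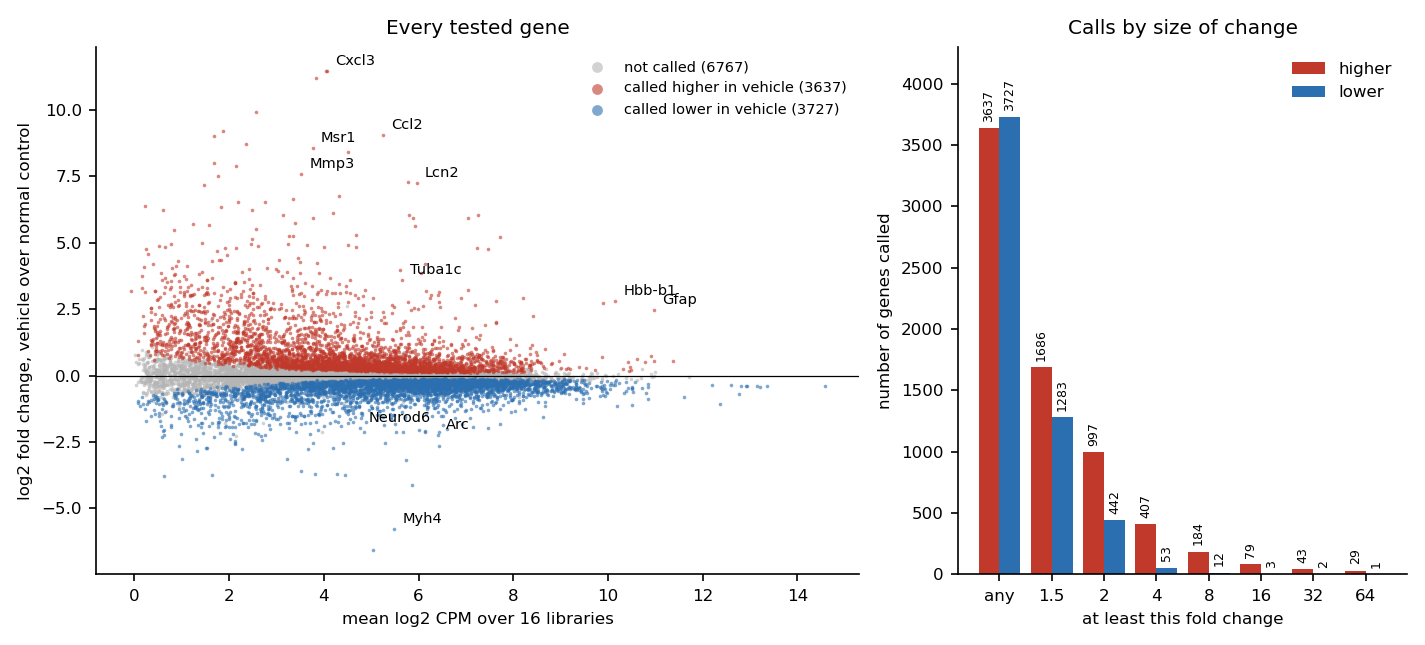
Left, each point is 1 of 14131 tested genes, with its mean log2 CPM over 16 libraries on the x axis and its log2 fold change (vehicle over normal control) on the y axis, red where called higher, blue where called lower and grey where not called. Right, bars count the called genes at or beyond each fold change; higher and lower calls are near equal at any size (3637 and 3727) and reach 184 against 12 at 8-fold. The fall of Myh4 rests on normal control 4, and the fitted rise of a gene with no counts in normal control, such as Cxcl3, depends on a prior count and is no measured fold.

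Most large rises were of genes at low levels in normal brain. Of the 997 genes that rose at least 2-fold, 274 had a mean under 1 CPM in normal control and 10 had at least 100 CPM, with a median of 2.39 CPM. Among the 184 that rose at least 8-fold, 126 started under 1 CPM. The 442 genes that fell at least 2-fold started at a median of 14.6 CPM, and the median of all tested genes was 26.3 CPM. A gene under 1 CPM in normal control passed the low-count filter mostly through its vehicle counts. Of 359 tested genes that started there, 274 were among these rises and 0 among these falls. The starting levels are thus partly set by the filter, which also bears on the lowest bin below. Abundance and direction went together across the whole table: 28.9% of the least abundant genes (the lowest of 4 equal bins by mean level) rose and 16.6% fell, against 19.2% and 43.2% in the most abundant bin. In reads, genes called higher took 13.7% ± 0.451 (SD, n = 8) of normal control counts and 22.2% ± 1.67 of vehicle counts, while genes called lower went from 53.3% ± 0.820 to 42.5% ± 1.71. Both sets were called on these same libraries, so the direction of each shift was fixed by that choice. The 10 most abundant genes of a library held 10.5% ± 0.973 of normal control counts and 8.45% ± 0.720 of vehicle counts, a difference of -2.05 percentage points by an exact two-sided permutation test over 12870 assignments (adjusted p = 0.00155). This measure is not separate from the mitochondrial share of counts given below, since Mt-co3 alone lay at 9983 to 14421 CPM in normal control.

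Of the lists and families described, DNA replication had the largest share of members called higher. Of 29 tested genes of DNA replication 28 rose, 16 of them at least 2-fold, with a median log2 fold change of 1.40 against -0.01 over all genes, and 22 had groups that did not overlap. Mcm5, a subunit of the helicase that opens DNA for copying, lay at 0.68 to 3.20 CPM (median 1.26) in normal control and 22.2 to 31.4 CPM (27.2) in vehicle. It rose by 4.23 ± 0.20 (log2 fold change with its SE, 8 libraries a group, edgeR adjusted p = 4.9e-12), and no vehicle library reached down to the normal control range. The sister subunits Mcm3 and Mcm2 rose by 3.12 and 2.07, and Gins1, which holds the helicase together, by 2.43. Pcna, the sliding clamp of the polymerases, was already at 27.1 to 35.8 CPM (29.0) in normal brain and reached 47.6 to 70.9 CPM (57.5). Its rise was 0.98 ± 0.08 (edgeR adjusted p = 3.01e-09), a smaller change than those of the helicase subunits named here. Tyms, which makes thymidylate, was the member not called (0.07). Of 27 mitosis genes 25 rose, with a median of 2.27. Cdk1, the kinase that drives entry into mitosis, lay at 0 to 1.55 CPM (0.656) against 5.17 to 10.8 CPM (7.32), a rise of 3.50 ± 0.37 (edgeR adjusted p = 2.43e-07). Top2a, which untangles copied chromosomes, went from 1.96 to 6.09 CPM (2.58) to 13.7 to 36.4 CPM (26.5), with no overlap. Its rise was 3.15 ± 0.22. Aurkb was not called (-0.35) and Anln, anillin of the cleavage furrow, fell by 0.50. These genes remained rare: all DNA replication members together took 0.0232% of counts in normal control and 0.0567% in vehicle.

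The promoters of replication genes are shown because they carry the letters of the E2F site, bound by the factors that switch on S phase. RefSeq promoters (build GRCr8, 250 bases before to 50 after the start) were matched by symbol for 10482 tested genes, and for 24 of the 29 replication genes. The E2F motif TTTNNCGC, searched on both strands, stood in 12 of these 24 promoters (50%), in 8.25% of all tested promoters and in 8.73% of those of genes that rose at least 2-fold. Among replication genes with a match wholly before the start, Mcm5 and Gins1 rose most. The 250 bases before the start are given 5' to 3' on the gene's strand, with E2F letters in capitals, for Mcm5 at chr19:13488563-13488812 (plus strand) and Gins1 at chr3:160184670-160184919 (plus strand).
Mcm5: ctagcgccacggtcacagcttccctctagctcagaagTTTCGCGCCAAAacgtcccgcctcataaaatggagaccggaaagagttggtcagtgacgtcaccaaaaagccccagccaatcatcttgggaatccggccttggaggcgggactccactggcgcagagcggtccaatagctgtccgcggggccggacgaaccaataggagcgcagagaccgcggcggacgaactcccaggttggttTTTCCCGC
Gins1: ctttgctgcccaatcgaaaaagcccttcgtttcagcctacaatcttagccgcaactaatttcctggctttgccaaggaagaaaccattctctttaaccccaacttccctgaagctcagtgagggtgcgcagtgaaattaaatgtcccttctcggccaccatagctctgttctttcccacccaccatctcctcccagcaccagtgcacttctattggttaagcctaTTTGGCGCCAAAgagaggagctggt
In both genes a pair of matches on opposite strands overlapped, starting 213 and 209 bases before the start in Mcm5 and 25 and 21 bases before it in Gins1. Mcm5 had a further match that ended at the base before the start. A match is a run of letters and no measured binding.

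Among genes that rose at least 2-fold, the letters of some of the sites searched were more common than among all promoters. The AP-1 motif TGANTCA, bound by Fos and Jun, was in 10.0% of 699 such promoters, in 5.47% of the 311 of genes that fell at least 2-fold and in 4.87% of all. The kappa B motif GGANTTTCC, bound by NF-kB, was in 3.58% (25 promoters), 0.322% (1) and 1.3% (136). For the STAT motif TTCCNGGAA the shares were 2.00% (14 promoters), 0.643% (2) and 1.16% (122). The PU.1 motif GAGGAAGT of myeloid cells was in 4.43%, 1.29% and 2.50%. The remaining motifs did not stand higher in the rising genes than in all promoters: TGACGTCA (CRE) was in 2.86% against 3.14%, TGACNNNGC (ARE) in 14.3% against 14.7%, CACGTG (E-box) in 8.30% against 9.16%, TGCNCNCGG (MRE) in 5.72% against 7.46% and GCGTGGGCG (EGR) in 0.715% against 1.06%. These shares are descriptions with no test. The median GC content of the promoters was 58.3% in rising genes, 59.0% in falling genes and 61.0% in all. Matches of kappa B and STAT overlapped in 2 promoters of all genes, and of AP-1 and ARE in 39. The 2 genes with the largest rises that had an AP-1, kappa B or STAT match wholly before the start were Il11, a cytokine gene, at chr1:78098372-78098621 (plus strand), and Cxcl1, a chemokine gene for neutrophils, at chr14:17479322-17479571 (minus strand). Capitals mark AP-1 in Il11 and kappa B in Cxcl1.
Il11: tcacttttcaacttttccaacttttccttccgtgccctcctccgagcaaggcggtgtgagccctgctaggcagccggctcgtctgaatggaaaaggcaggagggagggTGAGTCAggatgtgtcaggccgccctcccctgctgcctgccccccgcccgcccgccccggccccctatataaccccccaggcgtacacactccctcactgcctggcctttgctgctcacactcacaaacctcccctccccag
Cxcl1: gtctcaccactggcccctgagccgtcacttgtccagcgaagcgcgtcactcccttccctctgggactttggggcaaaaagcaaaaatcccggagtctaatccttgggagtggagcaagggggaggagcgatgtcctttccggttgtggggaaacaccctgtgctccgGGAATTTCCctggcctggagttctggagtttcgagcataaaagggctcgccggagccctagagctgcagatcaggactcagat
Il11 had 0 counts in all normal control libraries and 2.91 to 12.1 CPM (6.90) in vehicle. Cxcl1 had 0 to 0.0914 CPM (median 0) and 2.94 to 20.8 CPM (8.61), again with no overlap.

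Most cytosolic ribosomal protein genes rose, the majority by less than 2-fold. Of 59 cytosolic ribosomal protein genes, which build the ribosome's protein frame, 54 rose, 4 of them at least 2-fold, and 0 fell, with a median of 0.52, and their share of counts went from 0.915% ± 0.0675 (SD, n = 8) to 1.46% ± 0.169. Rplp0, of the ribosomal stalk, lay at 236 to 294 CPM (277) in normal control and 455 to 702 CPM (533) in vehicle, and rose by 1.00 ± 0.08. Rpl3, near the catalytic centre of the large subunit, lay at 277 to 330 CPM (294) and 377 to 501 CPM (424), and rose by 0.54 ± 0.06. Both had groups that did not overlap, as had 27 of the 59. Ribosomal protein genes have many near-identical processed copies, so the counts of a single member are uncertain. Rps27l, a paralogue induced by p53, rose most, by 1.93 ± 0.17 (edgeR adjusted p = 3.8e-08), from 6.30 to 12.0 CPM (8.35) to 19.5 to 42.3 CPM (34.7). Rps18 was called at 1.78, but it overlapped between groups (3.72 to 7.22 and 5.06 to 60.2 CPM). Its change was between 1.22 and 1.92 with each library left out in turn. The ribosome inside mitochondria did not share the shift: of 69 mitochondrial ribosomal protein genes 11 rose and 1 fell, with a median of 0.02 (-0.03 on the centred TPM scale), the lowest share called of any family described.

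Helpers of translation went the same way as the cytosolic ribosome. Of 48 translation initiation factors and their regulators 30 rose and 2 fell (median 0.26). Eif4a1, the helicase that unwinds messenger ends, went from 143 to 188 CPM (163) to 253 to 370 CPM (280), a rise of 0.83 ± 0.08 with no overlap, while its neuronal-rich relative Eif4a2 fell by 0.19. Eif4ebp1, which holds back cap-dependent initiation, rose by 1.75 ± 0.17 from 1.55 to 3.65 CPM (2.66) to 6.5 to 11.4 CPM (8.72). Of 17 transfer RNA synthetases, which load amino acids onto transfer RNA, 10 rose and 0 fell. Rars1, for arginine, rose most, by 0.76 ± 0.07. Eef1a1, the elongation factor that delivers loaded transfer RNA, lay at 1955 to 2305 CPM (2178) against 2794 to 3709 CPM (3071) and rose by 0.53 ± 0.06 (edgeR adjusted p = 9.74e-07).

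Genes of the nucleus and of protein folding and breakdown also leaned upward. Of 67 splicing factors 42 rose and 6 fell (median 0.22). Snrpa, of the U1 particle, rose by 0.71 and Hnrnpf by 0.85, while Snrpn, the neuronal imprinted member, fell by 0.50. Of 20 nuclear pore genes 16 rose and 0 fell (median 0.42), none of them by 2-fold, and Nup205 of the inner ring rose by 0.64 ± 0.08 from 18.7 to 26.8 CPM (21.5) to 27.1 to 40.0 CPM (34.7). Of 27 genes of folding in the endoplasmic reticulum 18 rose and 0 fell (median 0.30). P4hb, protein disulphide isomerase, lay at 107 to 126 CPM (115) and 198 to 252 CPM (221), a rise of 0.95 ± 0.06 (edgeR adjusted p = 2.3e-10) with groups far apart. The stress sensor Eif2ak3 and the chaperone Hyou1 were not called (-0.14 and 0.01). Of 44 proteasome genes 22 rose and 1 fell, with a median of 0.15: the 3 that rose at least 2-fold were Psmb8, Psmb9 and Psme2 of the interferon-induced form, while the base subunit Psmd1 rose by 0.11.

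**Figure D2:**
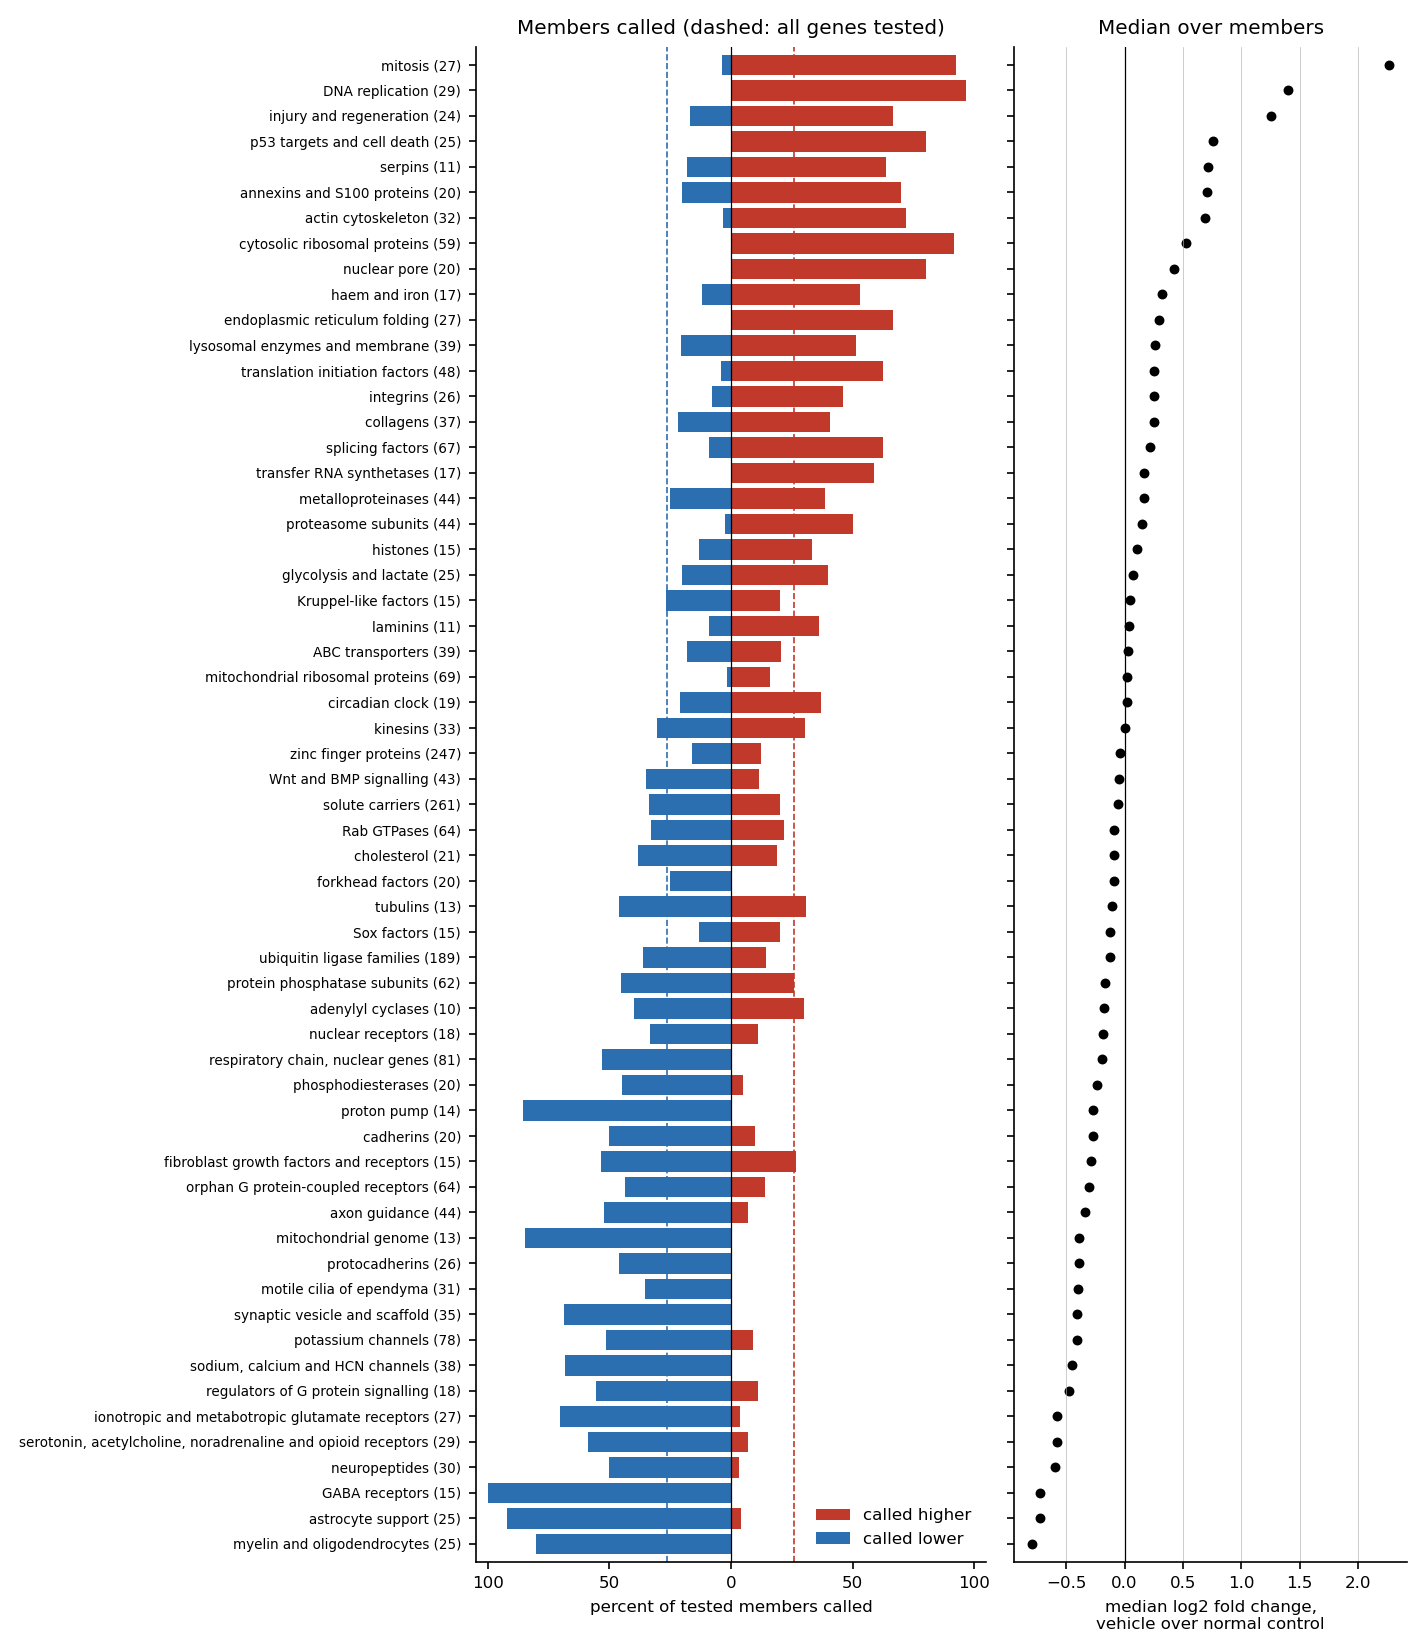
Left, bars give the percent of tested members called higher (red, rightward) and lower (blue, leftward) in vehicle for gene lists and families, with the number tested in brackets and dashed lines at 25.7% and 26.4%, the shares over all genes. Right, points give the median log2 fold change of the members, from 2.27 for mitosis to -0.79 for myelin and oligodendrocyte genes.

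Several families held members that rose beside members that fell, as did all genes together. Of 33 kinesins, motors that walk on microtubules, 10 rose (30.3%) and 10 fell (30.3%), near the shares over all genes. Their median of 0.01 turned slightly negative with limma voom, on the centred TPM scale and with some single libraries left out. All 10 that rose did so at least 2-fold and are motors of the mitotic spindle or of cell cleavage. Kif11, which pushes spindle poles apart, went from 1.27 to 4.27 CPM (1.53) to 5.96 to 11.5 CPM (9.42), a rise of 2.27 ± 0.23 without overlap. The 10 that fell changed by less than 2-fold and include axonal transport motors. Kif1a, a carrier of synaptic vesicle precursors, lay at 1384 to 1830 CPM (1744) and 1090 to 1369 CPM (1203) and fell by 0.44 ± 0.07, while Kif5a was not called (-0.07).

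Of 13 tubulins 4 rose (30.8%) and 6 fell (46.2%), with a median of -0.11 that was 0.02 on the TPM scale. Their levels can be set beside each other per length. Tubb6 stood at 4.60 ± 1.42 TPM (SD, n = 8) in normal control and 78.7 ± 17.8 TPM in vehicle, and Tuba1c at 12.2 ± 3.20 and 161 ± 18.5 TPM. Their log2 fold changes from counts were 3.97 ± 0.19 and 3.60 ± 0.13, and all 8 vehicle libraries lay above all normal control libraries. Tubb2b, common in growing neurites, rose by 1.04 from 167 ± 21.4 to 372 ± 57.4 TPM. Tubb3, the neuronal isotype, fell by 0.55 from 579 ± 93.5 to 432 ± 50.3 TPM, and Tubb4a, rich in myelinating oligodendrocytes, fell by 1.15 from 1925 ± 302 to 945 ± 85.9 TPM. By mean TPM, Tubb4a was the highest of these 5 isotypes and Tubb6 the lowest in both groups, while Tuba1c and Tubb2b stood between.

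Calcium-binding and secreted families also held both directions. Of 20 annexins and S100 proteins 14 rose and 4 fell (median 0.71). S100a11 went from 1.23 to 2.70 CPM (1.89) to 19.3 to 36.4 CPM (26.6), a rise of 3.87 ± 0.17 (edgeR adjusted p = 9.44e-13). Anxa2, a membrane-linking annexin and partner of S100a10, rose by 3.05 ± 0.19 from 10.8 to 25.6 CPM (18.6) to 112 to 221 CPM (149). S100b, the glial member used as a blood sign of brain injury, went the other way, from 757 to 1097 CPM (961) to 406 to 537 CPM (459), and fell by 1.04 ± 0.08 with no overlap. Of 37 collagens 15 rose (40.5%) and 8 fell (21.6%). Col4a1, of vessel basement membranes, rose by 1.51 ± 0.07 from 75.8 to 94.8 CPM (80.0) to 178 to 267 CPM (231). Col11a2, a fibril-forming collagen that brain also transcribes, fell by 1.81 ± 0.15 from 300 to 380 CPM (328) to 53.2 to 131 CPM (89.6), and the groups did not overlap in either gene. Of 11 serpins, inhibitors of proteases, 7 rose and 2 fell. Serpine2, a glial inhibitor of thrombin, lay at 156 to 204 CPM (167) and 80.2 to 115 CPM (92.9) and fell by 0.86 ± 0.08 with no overlap.

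Of 26 integrin genes 12 rose and 2 fell. Itgax, Itgb7, Itgam, Itgal and Itgb2, which leukocytes carry, rose by 2.14 to 4.87. Itga5, the fibronectin receptor chain, rose by 3.08 ± 0.15 from 2.64 to 4.69 CPM (3.42) to 18.1 to 36.7 CPM (30.9), and Itgb8 of astrocytes fell by 0.59. Leukocyte markers moved with these genes, while the 4 microglia markers did not share a direction (1 rose and 2 fell, median -0.64). All 7 tested blood monocyte and macrophage markers rose, and their sum went from 88.5 to 131 CPM to 360 to 661 CPM. The list thus had counts in every normal control library and is not particular to cells that entered. The 5 tested neutrophil markers went from 3.74 to 7.97 CPM to 56.5 to 139 CPM, with Mmp8 and Ly6g6d under the filter. The part of these cells in the rises of integrins, of the actin genes and of lysosomal genes was not tested. Of 10 adenylyl cyclases 3 rose (30.0%) and 4 fell (40.0%). Adcy8, a calcium-stimulated form of neurons, fell by 1.77 ± 0.22 from 13.0 to 38.7 CPM (33.5) to 3.83 to 11.0 CPM (9.05), and Adcy4 rose by 1.55 ± 0.15 from 3.13 to 6.04 CPM (4.12) to 9.44 to 18.0 CPM (13.3).

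**Figure D3:**
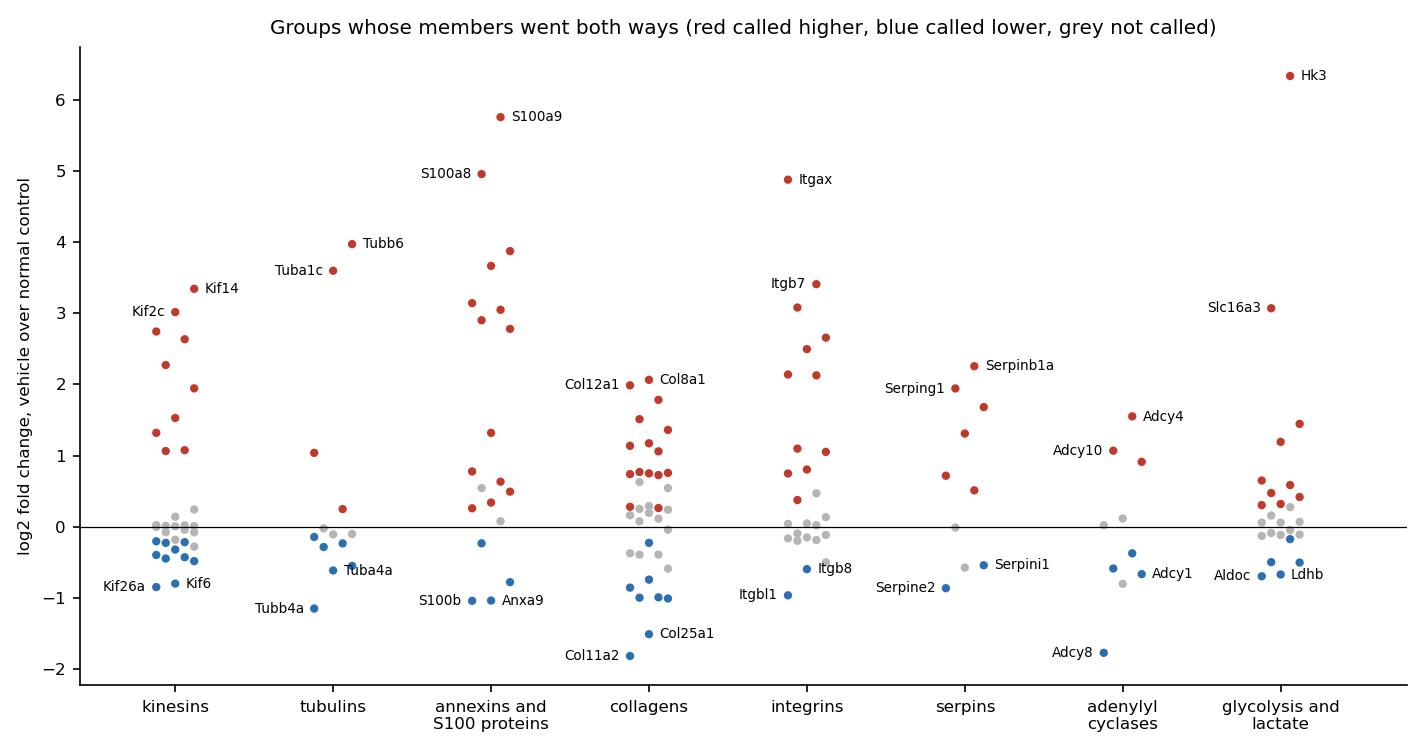
Each point is a member described here, with its log2 fold change (vehicle over normal control) on the y axis and its family on the x axis, red where called higher, blue where called lower and grey where not called. The 10 rising kinesins lie above 1 while the 10 falling ones stay above -1, and Tubb6 and Tuba1c stand far above the other tubulins.

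Genes of the actin skeleton and of cell death and injury rose as groups. Of 32 actin genes 23 rose and 1 fell (median 0.69). Actb, the common cytoplasmic actin and a frequent reference gene, went from 1308 to 1741 CPM (1406) to 2008 to 2828 CPM (2423), and rose by 0.75 ± 0.08 with no overlap, the next largest gain in reads after Gfap and the globin genes. Gapdh, another frequent reference gene, was not called (0.07 ± 0.06, edgeR adjusted p = 0.345), with 1751 to 2000 CPM (1886) and 1724 to 2167 CPM (2006). Capg and Lcp1, which cap and bundle actin filaments in leukocytes, rose by 2.73 and 2.55. Of 25 p53 targets and death genes 20 rose and 0 fell (median 0.76): Ripk3, a kinase of necroptosis, rose by 3.27 ± 0.23 from 0.509 to 1.65 CPM (0.88) to 5.88 to 12.6 CPM (9.67), and the p53 target Cdkn1a, an arrest factor, by 0.92. Bbc3 and Bcl2l11, which trigger the mitochondrial death route, were not called (0.33 and -0.25). Of 24 injury and regeneration genes 16 rose and 4 fell (median 1.25). Hspb1, a small heat shock protein, went from 3.50 to 23.1 CPM (8.69) to 208 to 376 CPM (295) and rose by 4.81 ± 0.28. Gap43 and Basp1, growth cone proteins of neurons, fell by 0.47 and 0.19, and Stmn4, a tubulin-binding relative of stathmin, by 0.47.

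Transcripts of energy metabolism fell slightly in the oxidative part and went both ways in the glycolytic part. Of 81 nuclear genes of the respiratory chain 0 rose and 43 fell, with a median of -0.19 (-0.07 on the TPM scale and -0.24 centred). The family's share of counts overlapped between groups (0.809% to 0.917% in normal control and 0.751% to 0.904% in vehicle). Ndufa5, of complex I, lay at 133 to 160 CPM (143) and 91.2 to 117 CPM (103), and fell by 0.49 ± 0.06, the largest change of this family. Of 13 tested genes of the mitochondrial genome 11 fell, by 0.35 to 0.45. The mitochondrial share of counts was 9.69% ± 1.10 in normal control and 8.07% ± 0.660 in vehicle (difference -1.62 percentage points, exact two-sided permutation test, adjusted p = 0.00295). Of 14 proton pump genes, which acidify vesicles and lysosomes, 12 fell by less than 2-fold. Their median was -0.27 (-0.14 on the TPM scale and -0.31 centred). Of 39 lysosomal enzyme and membrane genes 20 rose and 8 fell (median 0.26), with Ctsz, a phagocyte protease, up by 2.37. Of 25 glycolysis and lactate genes 10 rose (40.0%) and 5 fell (20.0%). Hk2, an inducible hexokinase, rose by 1.45 ± 0.14 from 4.94 to 10.3 CPM (7.00) to 13.1 to 24.5 CPM (19.8), and Slc16a3, a lactate exporter, by 3.07. Aldoc, the aldolase of astrocytes, fell by 0.69 ± 0.07 from 832 to 933 CPM (880) to 447 to 646 CPM (553), and Ldhb fell by 0.67 while Ldha rose by 0.59. Of 21 cholesterol genes 4 rose and 8 fell, and their median of -0.09 turned to 0.03 on the TPM scale. Ch25h, which makes 25-hydroxycholesterol, rose by 3.90 and Soat1, which stores cholesterol as ester, by 0.90. Apoe, the lipid carrier made by astrocytes, lay at 2103 to 2628 CPM (2449) and 1023 to 1683 CPM (1300) and fell by 0.87 ± 0.09.

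Myelin and oligodendrocyte genes had the lowest median of the lists and families with 10 or more tested members. Of 25 myelin and oligodendrocyte genes 0 rose and 20 fell (median -0.79), 13 of them with no overlap. Gjc3, a gap junction protein of myelinating glia, went from 112 to 171 CPM (142) to 27.3 to 51.5 CPM (36.3) and fell by 1.88 ± 0.12 (edgeR adjusted p = 6.04e-10). Scd2, a desaturase that supplies lipid to myelin, fell by 0.81. Mag, in the innermost myelin, fell by 0.30, and Gjb1 and the regulator Myrf were not called (-0.05 and -0.07). Of 25 astrocyte support genes 23 fell and 1 rose (median -0.72). Slc4a4, the bicarbonate carrier, lay at 79.1 to 110 CPM (92.4) and 25.1 to 59.8 CPM (43.5) and fell by 1.11, and Gjb6, connexin 30, by 1.47. Sox9, the astrocyte nuclear factor, was not called (0.11), and Glul rose by 0.52. In the same libraries Gfap went from 405 to 823 CPM (636) to 2599 to 4287 CPM (3408), so astrocyte genes did not share a direction.

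In the receptor and channel families of neurons, falls outnumbered rises, and many members of all but the GABA receptors were not called. All 15 tested GABA receptor subunits fell, by 0.24 to 1.34 (median -0.72, and -0.71 without normal control 6). Gabra5, an extrasynaptic subunit, went from 36.3 to 66.9 CPM (52.2) to 13.9 to 31.2 CPM (19.3), a fall of 1.34 ± 0.16. Gabbr1, of the metabotropic receptor, lay at 1013 to 1437 CPM (1254) and 627 to 820 CPM (717), and fell by 0.78 ± 0.08 with no overlap. Of 27 glutamate receptors 19 fell, 1 rose and 7 were not called (median -0.57). Grin2c, a subunit of NMDA receptors also found in astrocytes, fell by 1.27 ± 0.10 from 108 to 148 CPM (132) to 42.0 to 65.4 CPM (53.1). Of 78 potassium channel genes 40 fell, 14 of them at least 2-fold, 7 rose and 31 were not called (median -0.41). Kcnq3, of the current that damps repeated firing, fell by 1.09 ± 0.13 from 80.0 to 136 CPM (102) to 38.7 to 62.9 CPM (50). Kcnn4, a calcium-gated channel of leukocytes and reactive microglia, was the member that rose most, by 3.60 ± 0.26 from 0.214 to 0.662 CPM (0.375) to 3.10 to 8.07 CPM (4.74). Of 38 sodium, calcium and HCN channel genes 26 fell, 0 rose and 12 were not called (median -0.45). Hcn2, of the pacemaker current, lay at 144 to 217 CPM (197) and 86.9 to 114 CPM (95.8) and fell by 0.94 ± 0.09.

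The other neuronal groups fell less evenly. Of 35 synaptic vesicle and scaffold genes 24 fell and 0 rose (median -0.40), none by 2-fold, and Camk2b, a kinase of the postsynaptic density, fell by 0.66. Syn1 and Bsn were not called (-0.16 and -0.10), nor was the neuronal nuclear marker Rbfox3 (0.07). Rbfox3 was the exception among the 6 neuronal markers, of which 5 fell and 0 rose (median -0.41). Of 29 receptors for serotonin, acetylcholine, noradrenaline and opioids 17 fell and 2 rose, with a median of -0.58 that was -0.39 without normal control 6. Of 30 neuropeptide and granule genes 15 fell and 1 rose. Scg2, a granin of dense-core vesicles, went from 178 to 301 CPM (267) to 80.7 to 129 CPM (102), a fall of 1.29 ± 0.11. Gal, a peptide that injured neurons make, was the member that rose, by 2.51 ± 0.29 from 0.473 to 3.43 CPM (2.39) to 7.66 to 18.1 CPM (11.8). Of 44 axon guidance genes 23 fell and 3 rose, Dcc, the netrin receptor, by 1.34 and Sema3c upward by 0.61. Of 26 protocadherins, which label neurons for adhesion, 12 fell and 0 rose. Of 18 regulators of G protein signalling 10 fell and 2 rose, with a median of -0.48 that was -0.28 without normal control 6.

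Genes of single forebrain regions varied widely among the normal control libraries. Slc17a6, the vesicular glutamate transporter of thalamus and brainstem, lay at 4.49 to 249 CPM (173) in normal control and 5.85 to 35.5 CPM (25.0) in vehicle. It fell by 2.64 ± 0.54 and the groups overlapped through normal control 6, without which the fall was 2.83. Ntng1, a guidance gene listed above, behaved alike (14.7 to 193 CPM and 13.3 to 36.7 CPM, -2.09 ± 0.41). Pde10a, a striatal phosphodiesterase, fell by 1.37 with all libraries and by 0.72 without normal control 6. Drd1, the agonist's main receptor, was not called (-0.91 ± 0.56, -0.09 without normal control 6 and 0.05 without normal control 4 and 6). Of 31 motile cilia genes, which ependyma lining the ventricles uses, 11 fell and 0 rose. Cfap43 fell by 1.79 ± 0.23 from 7.38 to 19.4 CPM (14.7) to 2.22 to 6.41 CPM (3.54), and the 3 ependymal markers summed to 8.61 to 31.6 CPM and 6.41 to 15.2 CPM, overlapping between groups. Of the 442 genes called at least 2-fold lower, 440 were still called lower without normal control 6 and 420 without normal control 4 and 6. Those still called at least 2-fold lower were 417 and 382.

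**Figure D4:**
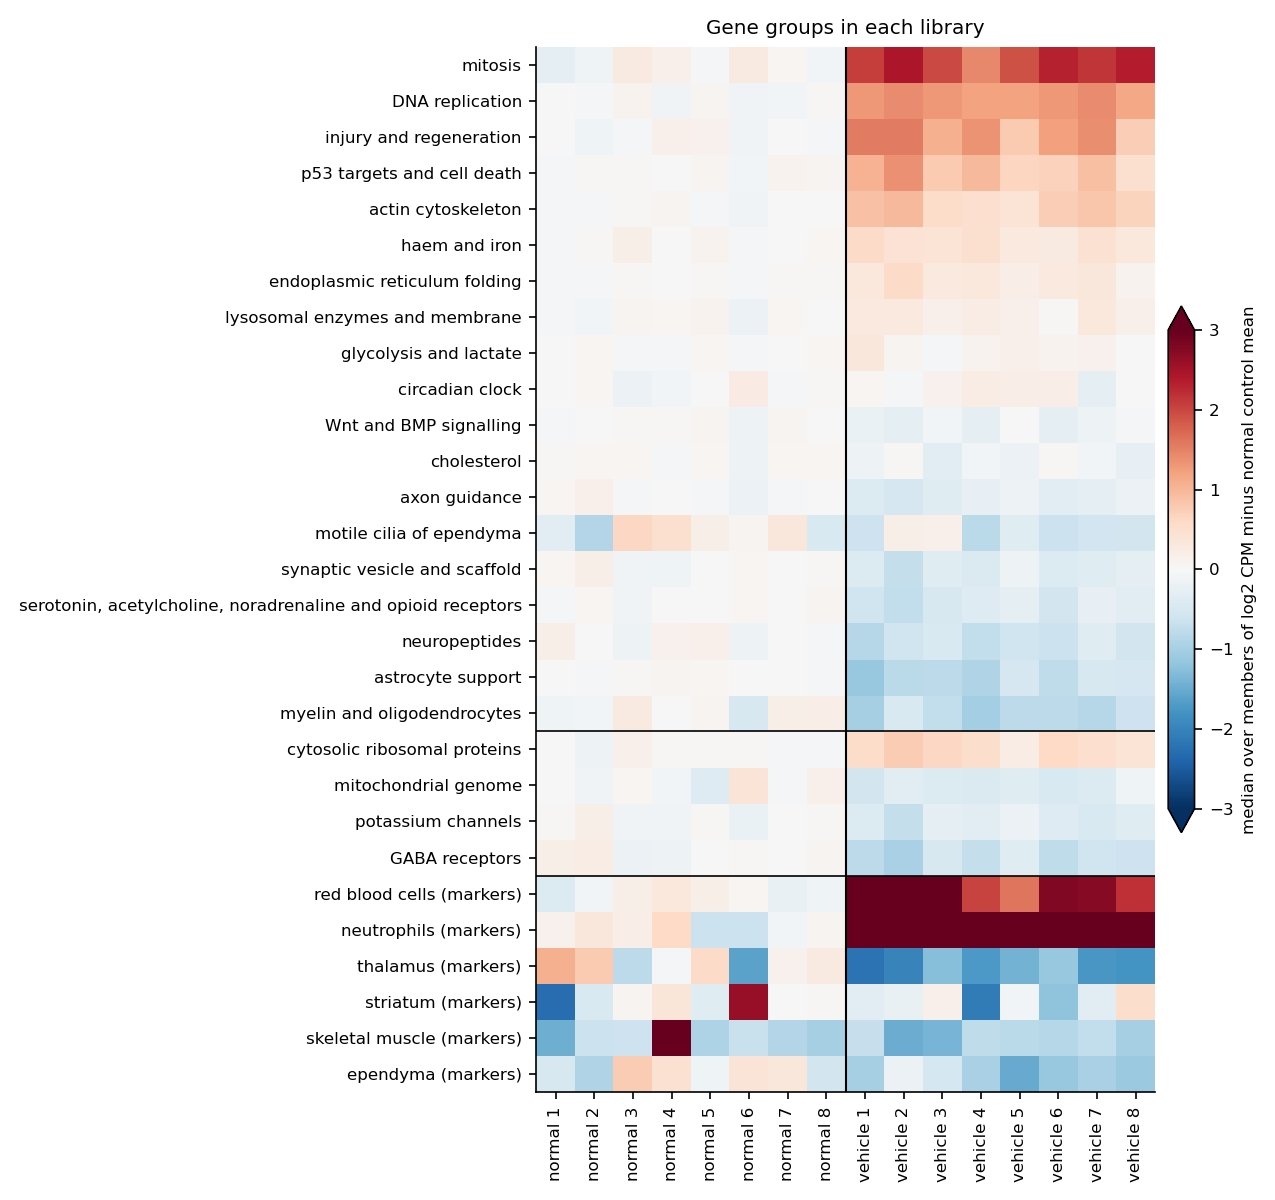
Each cell gives, for a gene group (rows) in a library (columns, 8 normal control then 8 vehicle), the median over members of log2 CPM minus the normal control mean, on a colour scale from -3 (blue) to 3 (red) that saturates beyond. Division, injury and actin genes are red in all 8 vehicle libraries, myelin, astrocyte and receptor genes blue, while the marker rows show normal control 4 apart for muscle and normal control 6 apart for striatum and thalamus.

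Genes outside these groups led the falls by size. Among called genes with no overlap, a proper symbol and an average log2 CPM of 1 or more, the largest falls were those of T2 (log2 fold change -2.73), Syt9 (-2.56), Egr4 (-2.55) and Mas1 (-2.42). Syt9, a calcium sensor of vesicle release, went from 10.3 to 38.5 CPM (20.7) to 2.42 to 5.04 CPM (3.75). Nr4a3 and Nr4a1, nuclear receptors induced by neuronal activity, fell by 2.14 and 2.12, and Nr4a3 went from 34.3 to 58.6 CPM (46) to 8.35 to 15.7 CPM (10.0). Tril, a partner of Toll-like receptors that glia transcribe, fell by 2.00 ± 0.17 from 146 to 166 CPM (155) to 20.7 to 60.9 CPM (35.4). By p-value, the firmest falls were Nkain4, Mal, Fez1, Gprc5b and Gjc3, and Nkain4, a partner of the sodium pump, fell by 1.75 ± 0.10 (edgeR adjusted p = 2.09e-11). The firmest rises were Gpnmb, Csf2rb, Msr1, Lgals3 and Tuba1c. Csf2rb, the shared receptor chain for granulocyte and macrophage growth factors, went from 0.811 to 1.65 CPM (1.29) to 35.9 to 63.4 CPM (50.9), a rise of 5.29 ± 0.16 (edgeR adjusted p = 4.34e-15).

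A few genes went from no counts to counts in every library. In 17 genes all normal control libraries had 0 counts and all vehicle libraries had some, and 6 of the 17 passed the filter. Against a floor of 3 counts per library, Trem1, an amplifying receptor of myeloid cells, was at least 23.4-fold higher (20.3-fold at the lowest with 1 library left out). Orm1, an acute phase protein, was at least 13.6-fold higher and the granulocyte factor gene Cebpe at least 2.46-fold, both under the filter and so with no test. Only Cyp2c11 showed the reverse, at or under that floor.

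By reads (CPM, not per length), the largest gains were Gfap (2789 CPM), the globin genes Hbb-b1 (1704) and Hba-a2 (1414), Actb (969) and Eef1a1 (965). Hbb-b1 went from 225 to 355 CPM (282) to 847 to 3111 CPM (1933), and the 3 tested red blood cell markers summed to 439 to 673 CPM and 1608 to 5487 CPM. Globin genes have near-identical copies, so their single counts are uncertain. Tf, transferrin, gained 659 CPM and Vim, a filament of reactive glia, 448 CPM. Large losses were those of Mt-co3 (-2894 CPM), Scd2 (-1717), Apoe (-1088) and Tubb4a (-881). Mt-co3 lay at 9983 to 14421 CPM (11721) and 7930 to 9951 CPM (9140), so a fall of 0.40 ± 0.08 took many reads with a small fold.

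**Figure D5:**
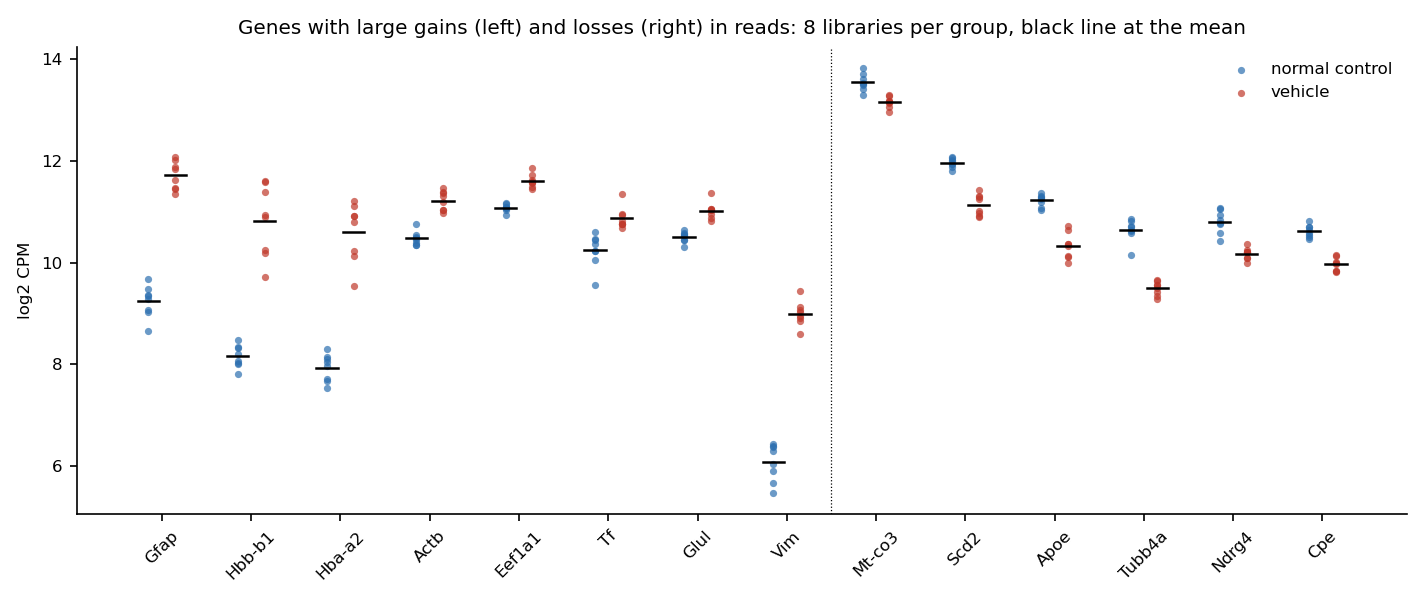
Points are log2 CPM of the 8 normal control (blue) and 8 vehicle (red) libraries for the 8 genes that gained most reads (left) and 6 that lost many (right), with a black line at each group mean. Gfap, the globin genes and Vim separate widely, whereas Mt-co3 shows 2 narrow groups set slightly apart.

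Of 247 zinc finger genes 30 rose (12.1%) and 40 fell (16.2%), both under the shares over all genes, and of 20 forkhead factors 0 rose and 5 fell (25.0%). Of 189 ubiquitin ligase genes 27 rose (14.3%) and 68 fell (36.0%). Of 261 solute carriers 53 rose (20.3%) and 88 fell (33.7%), and their median of -0.06 turned to 0.07 on the TPM scale. Within that family Slc1a5, a glutamine carrier, rose by 2.00 ± 0.18 from 2.88 to 7.57 CPM (5.89) to 15.6 to 30.9 CPM (22.1). Slc15a2, a peptide carrier of astrocytes, fell by 1.43 ± 0.12 from 55.5 to 69.5 CPM (60.6) to 15.2 to 33.9 CPM (21.3). Of 19 clock genes 7 rose (36.8%) and 4 fell (21.1%), and Cry2, a repressor of the clock, fell by 0.49. Of 43 Wnt and BMP genes 5 rose (11.6%) and 15 fell (34.9%), with Wnt7b up by 1.04 and Bmp4 down (-1.0).

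Vehicle libraries differed in the size of the change. Over the genes that rose at least 2-fold, the median rise in a vehicle library ran from 1.51 in vehicle 5 to 2.00 in vehicle 2, and over those that fell, from -1.0 in vehicle 5 to -1.68 in vehicle 1. Since the genes were chosen on these libraries, this is a description of spread. Of the 997 genes that rose at least 2-fold 838 (84.1%) did not overlap between groups, against 225 (50.9%) of the 442 that fell, and 66 and 89 of them varied more than 4-fold among vehicle libraries. Over all tested genes 2703 (19.1%) did not overlap. Membership rested on a call and a fold in these libraries, and large rises outnumbered large falls. The 2 shares are thus partly set by that choice.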

How the data were processed

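RNA was measured in 16 rat brain libraries, 8 normal control and 8 vehicle, grouped by title. The authors deposited raw counts per gene and TPM values, on build mRatBN7.2 per the submitters' processing notes; the aligner and counter were not given in the sources used here. Counts were filtered with edgeR's filterByExpr, scaled by TMM and tested without pairing by edgeR's quasi-likelihood test, with p-values adjusted over all 14131 genes by Benjamini-Hochberg. CPM values are TMM-scaled, and shares are percents of a library's raw counts. Total counts of 8911339 to 12383368 set the precision, and at 1 CPM a gene has about 10 counts. Of the genes tested, 707 have an identifier only. Shares per library were compared by exact permutation. DNA motifs were searched in RefSeq promoters (GRCr8), and a printed match had to lie wholly in the 250 bases before the start, which passed over Mcm3, Cdt1 and Mcemp1.

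Named genes had a mean log2 CPM of at least 1, a proper symbol, an adjusted p under 0.05 and groups that did not overlap: the 15 largest rises and falls, the 8 largest gains and losses in CPM, the 5 smallest p-values each way, the 2 largest rises and falls of each list, and Drd1. Other members named were chosen after their values were seen. The members and lists were chosen with earlier results of these data known. Alternatives were other filters, scalings and tools (DESeq2 1.42.0, limma 3.58.1), log2 TPM with a pseudocount of 1 or 0.1, a replicate block, all 24 libraries in the fit, and leaving out libraries. Some named genes and a gene family are not reported here. Scripts were tested on simulated data. Tools were R 4.3.3, edgeR 4.0.16, Matplotlib 3.10.9, pandas 2.3.3, SciPy 1.17.1, NumPy 2.4.6 and Python 3.11.15.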

Additional observations from a re-analysis of the deposited data

Results flagged for a closer look

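Each library's log2 CPM was compared with the other 7 of its group for the named genes reported here, and 17 values lay far from the rest by Dixon's criterion. The criterion was applied to 190 groups of 8, more than these 93 genes give with 1 normal control and 1 vehicle group each. Chance flags about 1 in 20 of the groups that vary. Groups with no counts throughout, such as Il11 in normal control, could not be flagged. Normal control 6 held 8 of the 17. It was lowest in its group for Tubb4a (10.15), Gprc5b (8.71) and Gjb6 (4.97), and highest for Egr4 (6.34), Actb (10.77), Homer1 (7.44), Htr1b (4.20) and Top2a (2.65). Vehicle 2 stood apart for Tf (11.34), Glul (11.37) and Htr1b (1.76). Vehicle 1 stood apart for Slpi (4.46), Tmem212 (-2.41) and Bmp4 (1.89), and vehicle 4 for Top2a (3.80). Cxcl1 in normal control 5 (-1.84) and Ccl12 in normal control 3 (-1.81) were single values above a floor of no counts.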

How the results depend on the processing

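With each library left out in turn, genes called higher numbered 3460 to 3778, called lower 3437 to 3772, at least 2-fold higher 953 to 1063 and at least 2-fold lower 414 to 493. On log2 TPM with a pseudocount of 1, calls lower were 2271 and at least 2-fold lower 221, and with a pseudocount of 0.1 calls lower were 2255. A test against a 2-fold threshold (glmTreat) called 622 higher and 121 lower, since it asks for more than a called gene with a 2-fold estimate. With a replicate block the counts were 3378, 3274, 992 and 411. The labels do not pair the samples. Deviations of same-numbered samples correlated between -0.276 and 0.0158, which gave no sign of a pairing but cannot exclude it. The cause of the TPM differences was not tested. All 2592 alternative values of the 96 named genes, Drd1 among them, stayed on their side of the threshold. These leave out glmTreat, run for the 2-fold counts only. Apart from Drd1, the 96 were chosen for a call and no overlap in these same libraries, so a lost call was unlikely from the start. Other members named in the text were not among the 96. Directions of the 96 were kept except for Drd1, not called in any, which went from -0.91 to 0.05 without normal control 4 and 6. Medians of, among others, cholesterol, Wnt and BMP, tubulin, solute carrier, Rab, ubiquitin ligase, zinc finger and forkhead genes turned positive on the TPM scale. Those of clock, mitochondrial ribosomal, kinesin, laminin, ABC transporter and Kruppel-like genes turned negative on the centred TPM scale, chosen after seeing the data. Depth limits genes under 1 CPM.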
